A study of Mus musculus with 4 samples.

Results

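Of the 33012 probes on a mouse expression array, 165 had a signal well above noise on the parental melanoma line B16 and none above the detection limit on any of the 3 lines derived from it by passage through mice. They were selected on the signal-to-noise ratio (S/N) that the array analyzer gives each spot: at least 6 on B16 and below 3 on each of B16-RI, B16-RII and B16-RIIL, with an error flag of at most 5000 on all 4 arrays. Each member stands for a different gene or transcript identifier. Their S/N and signals on these arrays are therefore a description of what was selected and no evidence of its own.

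B16 is a melanoma line of C57BL6 mice. The cells injected into the back skin of such mice were the subline B16F1. Cells grown out of lymph node metastases after 1 round gave B16-RI, and a further round gave B16-RII from lymph nodes and B16-RIIL from the lung. The labels name no engineered allele or drug treatment for any of the 4 lines, and all were kept in DMEM with 20% serum for up to 10 passages. Each passaged line is a bulk outgrowth of metastases, each was cultured in duplicates with the RNA of 2 passage numbers pooled, and 1 array per line was used, so no difference between lines was checked in a replicate and no test was run. The study's methods describe duplicate arrays of biological replicates, and the deposited table holds a second array per line. The labels list no sample for these, so they were left out by choice, although they could check the calls, most of which rest on dim signals. In a bulk line, fewer cells that express a gene and less RNA per cell cannot be told apart.

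Melanoma cells descend from pigment cells of neural crest origin and keep much of the pigment programme in culture. A tumour line is a mixture of clones, and its outgrowths in lymph node or lung can each carry a different subset. Array detection calls turn a continuous signal into on and off, so a gene near the limit can change its call with a small change in signal. Among the genes met here are a decoy receptor for a bone cytokine, enzymes that finish the sugar chains of cell surface proteins, receptors for small peptides, and several genes best known from testis or from the nose.

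The arrays held signals of melanoma cells. Of 17 measured melanocyte genes, 15 were detected (S/N of at least 3) on B16, 15 on B16-RI, 16 on B16-RII and 16 on B16-RIIL, with none among the members, and Tyrp1, Dct and Pmel, which make or shape melanin, were at an S/N of 83.8 or more on B16. Detection was found for 3, 1, 2 and 3 of 9 fibroblast markers on the arrays in the same order, for 2, 1, 1 and 1 of 8 macrophage markers, for 0, 0, 1 and 1 of 8 endothelial markers and for 1, 0, 2 and 1 of 8 keratinocyte markers. Over each of these 4 lists the summed normalized signal was between 5.22 and 16.6 on B16 and between 5.91 and 24.2 on the passaged lines. The fibroblast markers Dcn and Pdgfra, the macrophage markers Adgre1 and Cd68 and the endothelial marker Cdh5 were below an S/N of 3 on every array. Col1a2, of the fibroblast list, was detected on all 4 arrays with an S/N of 16.4, 18.1, 13.2 and 47.7, as was Lyz2, of the macrophage list, with 10.5, 13.3, 9.40 and 17.2. Col1a1 was detected on B16, B16-RII and B16-RIIL, and Pecam1 on B16-RII and B16-RIIL. Postn, of the fibroblast list, had an S/N of 3.28 on B16 and 2.18, 0.3 and 2.6 on the passaged lines. Its signal was at least 2.19-fold lower on each of them. Krt14, of the keratinocyte list, had an S/N of 4.47, 2.93, 4.02 and 3.27. Lum was detected on B16-RIIL, Krt1 on B16-RII and the brighter Csf1r probe on B16. The part of such cells in the results was not tested. Detected probes numbered 13872 to 14855 per array. In the deposited normalized signal, probes detected on all arrays had a median difference of B16 minus B16-RI, B16-RII and B16-RIIL of -0.21, -0.41 and -0.22 log2 units, so the lower bounds of B16 over each line were taken on a scale on which B16 was the dimmest array.

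Of the 11175 probes with an S/N of at least 6 on B16 and acceptable flags, 165 were members, which is 1.48%. A gene symbol was given for 71 members (43.0%), against 69.2% of the 11175 probes. Among the 1907 of them with an S/N below 10 the share was 56.8%. Of the 71, 69 carried a single symbol, and 68 of these were matched to a current RefSeq gene, 42 by symbol and 26 by synonym. The other 94 members carry only a transcript or predicted gene identifier.

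Most members rested on a dim B16 signal. The S/N on B16 had a median of 7.56 and was below 10 for 136 of 165 members (82.4%), including 54 of the 71 named ones, while only 17.1% of all 11175 probes were below 10. An S/N of 15 or more was reached by 4 members. The raw B16 signal of members ranged from 239 to 10361 with a median of 1045, against a median of 6173 over the 11175 probes, and 156 members lay below the lower quartile of those probes. For 24 members, 9 of them named, the raw signal was below 633, the 95th percentile of the probes that were not detected on B16. For those members brightness alone would not set them apart from undetected probes.

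The share of probes that were members fell with each band of S/N on B16. It was 8.84% of the 1109 probes with an S/N of 6 to 8, 4.76% of 798 probes from 8 to 10, 1.83% of 1364 probes from 10 to 15, 0.202% of 988 probes from 15 to 20, and 0.0289% of 6916 probes at 20 or more. That highest band held 2 members, Spata9 and Mfng.

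**Figure D1:**
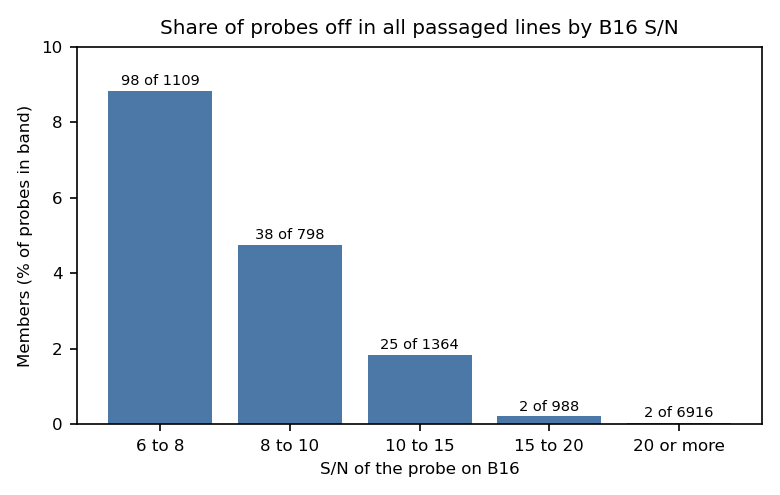
Bars give the members as a percentage of all probes with acceptable flags in each band of S/N on the B16 array (x axis), with the number of members of the number of probes above each bar. The share falls from 8.84% in the band of 6 to 8 to 0.0289% at 20 or more.

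The members also differed in their flags. The B16 flag was 64 for 27 of 165 members (16.4%), among them Spata9, Tnfrsf11b, Capn3 and Grpr, while any flag above 0 was found on B16 for 1.40% of the 11175 probes and for 2.67% of those with an S/N below 10. Of the 150 probes with a B16 flag of 64 and an S/N of at least 6, 18.0% were members, against 1.25% of probes with a flag of 0. The meaning of this value is not given in the sources used here, and its part in the results was not tested. With a flag of 0 on B16 required, 138 members were left, and Mfng and Plxna3 were among them.

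Similar selections gave a frame for these numbers. The same limits found 84 probes on in all 3 passaged lines and off on B16, with a median S/N of 12.8 on B16-RIIL and 38.1% below 10. They found 59 probes on in both round 2 lines only, with a median S/N of 7.72 on B16-RIIL and 76.3% below 10. They found 183 probes on in the lung line only, with a median S/N of 7.17 and 85.2% below 10. The members' median S/N of 7.56 lay between those of the round 2 and lung selections. A flag of 64 was found on the lung array for 25.1% of the lung-only probes, against 4.76% of the probes on in all passaged lines. The difference between these selections was not tested.

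How far each member lay below B16 was given as a bound, because the passaged signals were under the detection limit. For the bound, the B16 normalized signal was divided by the passaged signal or by the dimmest signal called detected on the passaged array, whichever was higher, and it is written as at least N-fold. The median bound over the 165 members was 2.13 log2 units over B16-RI, 2.25 over B16-RII and 2.30 over B16-RIIL, or at least 4.39-, 4.74- and 4.94-fold. Over all 3 lines the bound was at least 2-fold for 130 members (78.8%), at least 4-fold for 65 and at least 8-fold for 16, of which 9 were named. Among all 11175 probes, 1.62% were at least 2-fold brighter on B16 than on every passaged line, and the share was 4.71% for B16-RI, 3.17% for B16-RII and 4.13% for B16-RIIL. The selection used the same arrays, so nothing is read from this comparison.

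The bound was below 2-fold on at least 1 line for 35 members, 16 of them named, so the label of a switched-off probe rests on S/N alone there. For 3 members without a gene symbol the signal was higher on a passaged line than on B16. Among these, mCG148145 was at 1.12 on B16, 0.82 on B16-RI, 0.77 on B16-RII and 1.47 on B16-RIIL. The smallest bound among named members was that of Zmat1 (listed as B930008K04Rik), with 2.16 on B16 and 2.01 on B16-RIIL.

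The brightest member was Spata9, a spermatogenesis-associated gene listed on the array as 1700030K01Rik. It had a normalized signal of 27.9 on B16, against 0.43 on B16-RI, 0.62 on B16-RII and 0.48 on B16-RIIL. The S/N was 32.8 on B16 and no more than 1.14 elsewhere, and the signal on B16 was at least 44.9-fold above every passaged line, the largest bound of all members. Pfn3, a profilin known from testis that binds actin, was at 5.49, 0.41, 0.63 and 0.32 in the same order of lines, at least 8.71-fold apart. Rhox5 (listed as Pem), a homeobox gene of the reproductive tract on the X chromosome, was at 3.24, 0.21, 0.85 and 0.95. In these 3 germ cell genes B16 was the highest array by at least 3.41-fold, and all had an S/N above 10 on B16.

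**Figure D2:**
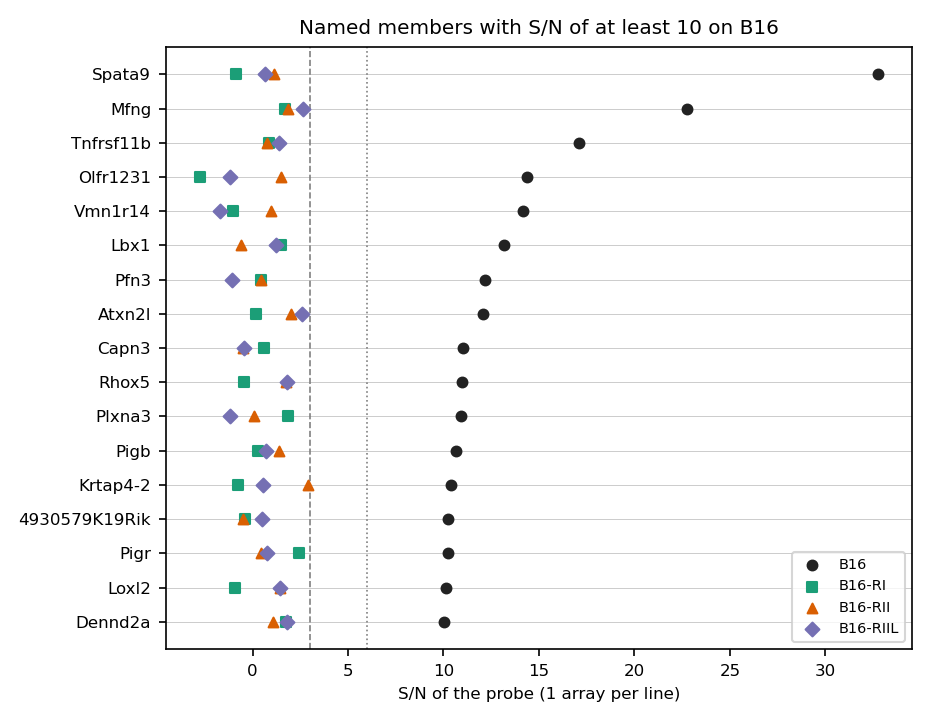
The S/N of each of the 17 named members with an S/N of at least 10 on B16 is shown on the 4 arrays, 1 array per line (x axis). The dotted line marks the limit of 6 for B16 and the dashed line the limit of 3 for the passaged lines. Spata9 at 32.8 and Mfng at 22.7 stand to the right, and the other 15 genes lie between 10.0 and 17.1 on B16.

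Mfng, manic fringe, is a Golgi enzyme that lengthens O-fucose chains on Notch receptors and so alters which ligands they answer to. It was at 14.0 on B16, 0.60 on B16-RI, 0.92 on B16-RII and 1.07 on B16-RIIL, at least 13.1-fold apart. Among the other fringe genes, Rfng was detected on all arrays at 2.79, 2.91, 3.14 and 4.89, while Lfng had an S/N of 2.98 on B16 and 3.36 on B16-RIIL. Probes for Notch1, Notch2 and Notch3 were below detection on B16. Of the 2 Notch4 probes, 1 was bright on all arrays, at 1784, 2274, 2099 and 2145, and the other had an S/N of 2.29 on B16 and 6.41 on B16-RII. The ligand Dll3 was detected on every array and was at 3.81 on B16 and 6.48 on B16-RI.

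Other members modify glycans or lipid anchors. Pigb, a mannosyltransferase of glycosylphosphatidylinositol anchor synthesis, was at 3.91 on B16 and 0.64, 0.57 and 0.41 on the passaged lines. Ndst1 and Ndst4 sulfate heparan chains. The Ndst4 probe was at 2.24, 1.82, 1.60 and 1.26, so it was set apart by S/N (6.17 against 2.86 or less) more than by signal.

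Tnfrsf11b encodes osteoprotegerin, a secreted decoy receptor that binds RANK ligand and limits osteoclast formation. It was at 4.90 on B16, 0.45 on B16-RI, 0.36 on B16-RII and 0.56 on B16-RIIL, at least 8.75-fold apart, and its S/N on B16 was 17.1. The ligand Tnfsf11 and both probes of its receptor Tnfrsf11a were below an S/N of 3 on all 4 arrays.

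The other secreted members had a lower S/N on B16 than Tnfrsf11b. Loxl2, a lysyl oxidase that cross-links collagen, was at 4.43, 0.64, 0.59 and 0.50, and its relative Loxl3 was detected on all arrays, at 26.9, 33.3, 37.8 and 39.7. Serpine2, an inhibitor of thrombin and other serine proteases, was at 5.56, 0.48, 0.43 and 0.68, at least 8.18-fold apart at an S/N of 6.78. Npy, neuropeptide Y, was at 3.98 on B16 and 1.07 or less elsewhere. Il3, interleukin 3, was at 1.32 on B16 and 1.03 on B16-RIIL with an S/N of 6.01, just inside the limit. Of the 6 secreted members 4 were dim by the limit of 10, beside 82.4% of all 165 members.

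The receptors for peptides and amines were 3 in number, and all had an S/N below 10, as did 82.4% of all members. Ednra, the endothelin receptor type A, was at 4.81 on B16, 0.89 on B16-RI, 0.80 on B16-RII and 0.60 on B16-RIIL, at least 5.40-fold apart. The other endothelin receptor, Ednrb, which guides melanocyte development, was below detection on all 4 arrays. Grpr, the receptor for gastrin-releasing peptide, was at 4.02, 0.60, 0.48 and 0.57, and its ligand gene Grp was below detection throughout. Hrh2, a histamine receptor, was at 1.86 on B16 and 0.98 on B16-RII, where its bound was below 2-fold.

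The chemosensory receptors were 6 members: the olfactory receptors Olfr1231, Olfr495, Olfr433 and Olfr114, the vomeronasal receptor Vmn1r14 (listed as V1rc7) and the Mas-related receptor Mrgpra4. These genes serve odour, pheromone and itch or pain sensing in neurons. Olfr1231 had an S/N of 14.3 on B16 at a normalized signal of 1.00, against 0.34, 0.43 and 0.41. Vmn1r14 was brighter, at 4.86 against 0.66, 0.44 and 0.43. Olfactory receptors are represented by 711 probes with acceptable flags, and an S/N of at least 6 was reached by 42 of them on B16, 36 on B16-RI, 42 on B16-RII and 42 on B16-RIIL. The 4 members were 9.52% of those 42 on B16, beside 1.48% over all probes at that S/N and 8.84% over those with an S/N of 6 to 8. As many olfactory receptor probes therefore passed the limit on the round 2 lines as on B16.

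Adhesion and guidance were represented by Plxna3, Cdh13, Igsf11 and Parvg. Plxna3, a semaphorin receptor subunit, was at 14.96 on B16, 1.16 on B16-RI, 0.47 on B16-RII and 0.48 on B16-RIIL, at least 12.9-fold apart, although its S/N on B16 was only 10.9. The bright probe of its relative Plxna1 stayed between 193 and 278 on all 4 arrays. Dimmer probes of relatives changed calls between lines. In the same order of lines, the second Plxna1 probe had an S/N of 4.74, 7.05, 2.33 and 2.68. Plxna2 had 3.79, -0.25, -1.72 and 4.0, and Plxna4 had 1.84, 4.92, -0.47 and -1.55. Cdh13, a cadherin held to the membrane by a lipid anchor, was at 5.86, 0.79, 1.02 and 0.31. Parvg, a parvin linking integrins to actin, was at 4.46, 0.57, 1.23 and 1.45.

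Capn3, a calcium-dependent protease known from muscle, was at 3.54, 0.17, 0.35 and 0.26, at least 8.43-fold apart. Ryr1, the calcium release channel of skeletal muscle, was at 4.92, 0.41, 0.34 and 0.38, at least 11.7-fold apart at an S/N of 7.08, while both Ryr2 probes were below detection on all arrays and Ryr3 had an S/N of 2.42 on B16 and 4.96 on B16-RIIL. The other channel and transport members Cacng2, Slc16a8 and Sfxn3 had an S/N of 7.24 to 8.62.

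Among members that act on transcription, chromatin, RNA or DNA, Lbx1 (listed as Lbx1h), a homeobox factor of muscle precursors and spinal cord, was at 4.62, 0.88, 0.59 and 0.33. Lhx2, a LIM homeobox factor, had the lowest raw signal of all members, 239, with normalized values of 0.61, 0.51, 0.33 and 0.34. Cpeb3, a regulator of mRNA translation, was at 1.60 and 1.38 on B16 and B16-RI. Atxn2l (listed as A2lp), an RNA-binding relative of ataxin 2, was at 2.5, 0.58, 0.95 and 0.87, at least 2.63-fold apart. Of 7 members in this group, which includes the DNA repair polymerase Polq, 4 were at least 2-fold below B16 on every line, beside 78.8% of all 165 members.

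All 7 metabolic enzymes were dim, with an S/N of 6.27 to 8.70, and all were at least 2-fold below B16 on each line, beside 82.4% dim and 78.8% at least 2-fold apart over all 165 members. The brightest was Cyp3a16, a cytochrome P450, at 7.57, 0.90, 0.45 and 0.75. The keratin associated proteins Krtap4-2 and Krtap19-1, which belong to the hair shaft, were at 5.92 and 4.52 on B16 and at 1.00 or less elsewhere. Ifi27l2a and Ifi27l2b, relatives of an interferon-inducible gene, were at 0.88 and 1.95 on B16. They flank Ifi27 in RefSeq gene order on chromosome 12, and Ifi27 itself was bright on all arrays, at 54.8, 25.4, 37.1 and 53.4. Of the remaining members with a high S/N on B16, Pigr, the receptor that carries polymeric antibodies across epithelia, had an S/N of 10.2 at a signal of only 1.06, against 0.80, 0.42 and 0.41, and 4930579K19Rik was at 4.62, 0.75, 0.56 and 0.41. The functional groups were formed after the members were known and cover 52 of the 71 named members.

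**Figure D3:**
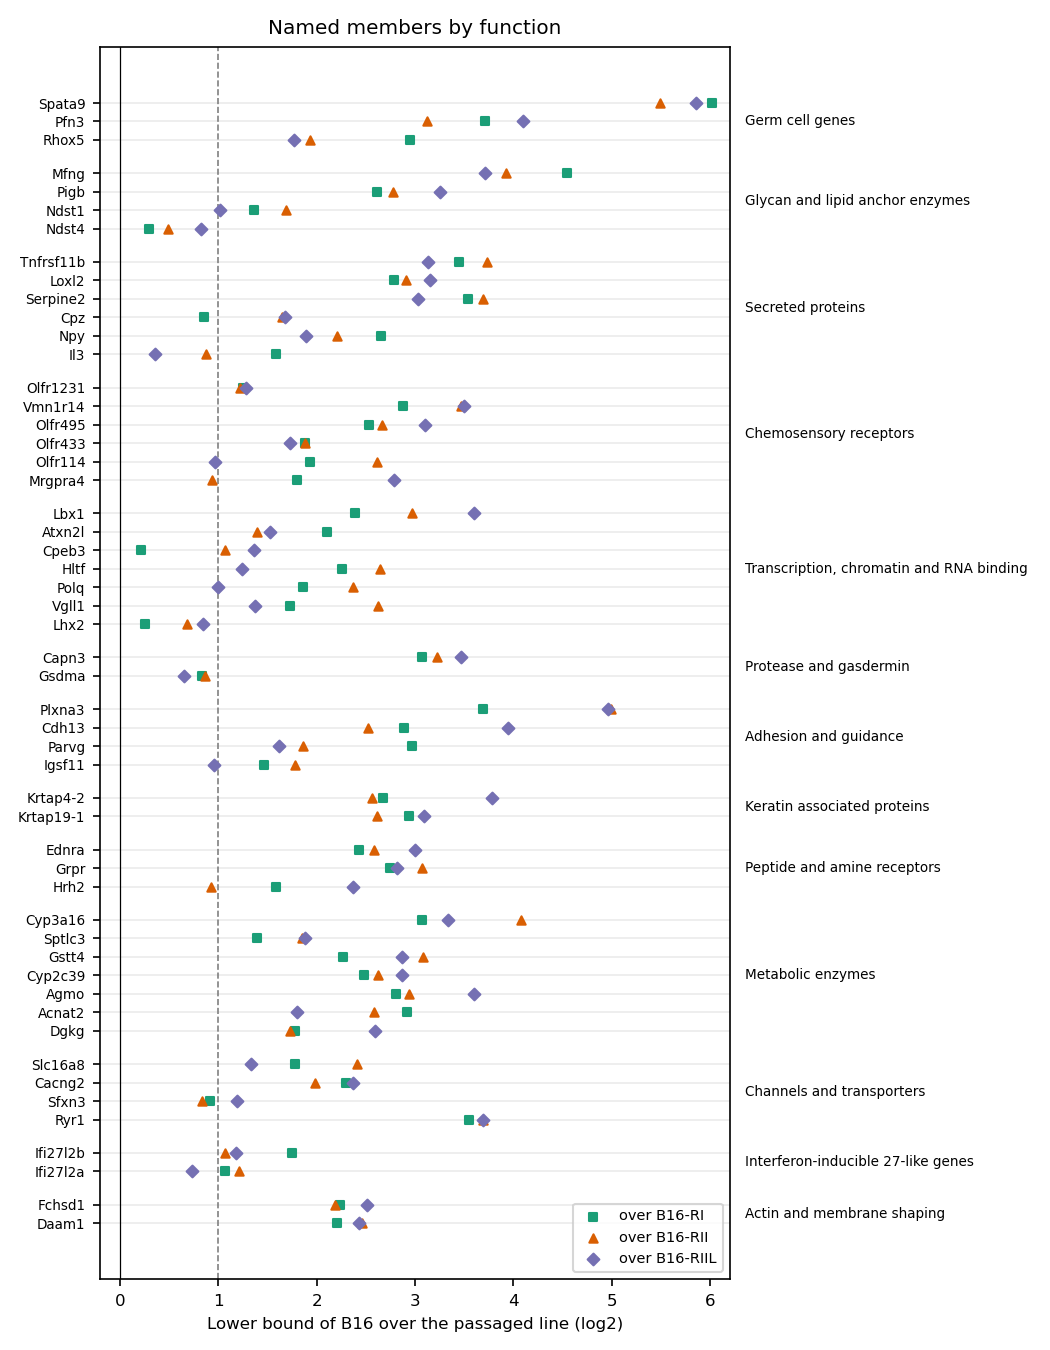
Each row is 1 of 52 named members, grouped by function, and the markers give the lower bound of B16 over B16-RI, B16-RII and B16-RIIL in log2 units (x axis), from 1 array per line. The dashed line marks 2-fold. Spata9 lies at 5.49 or more on all 3 lines, while Cpeb3, Lhx2, Ndst4 and Il3 lie below 0.4 on 1 line.

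Another probe for the same gene was present for 5 of the 68 matched genes and gave values the selection had not used. The Ndst1 member was at 2.90, 1.13, 0.90 and 1.43, while the other Ndst1 probe was detected on all arrays at 61.8, 65.6, 84.5 and 60.2. The other Peli3 probe was at 2.63 on B16 and 2.78 on B16-RII, detected on both, and below detection on B16-RI and B16-RIIL. The other Pigb probe followed the member in its calls, with an S/N of 4.17 on B16 and 0.16 or less elsewhere. Its signals were close, at 0.76, 0.56, 0.41 and 0.3, at least 1.36-fold apart against at least 6.11-fold for the member. Its raw B16 signal of 295 was below 633, the 95th percentile of the probes not detected on B16. The other probes of Loxl2 and Acnat2 were below detection on all 4 arrays, B16 included. So 1 of 5 other probes was detected on B16 alone, 2 were detected on passaged lines too and 2 were never detected. A further 2 probes share the identifier of a member without a single matched symbol. That of the member listed as both Creb5 and 9430076C15Rik had an S/N of 5.6 on B16 and 2.12 or less elsewhere, and that of mCG112838 was below detection on all arrays.

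**Figure D4:**
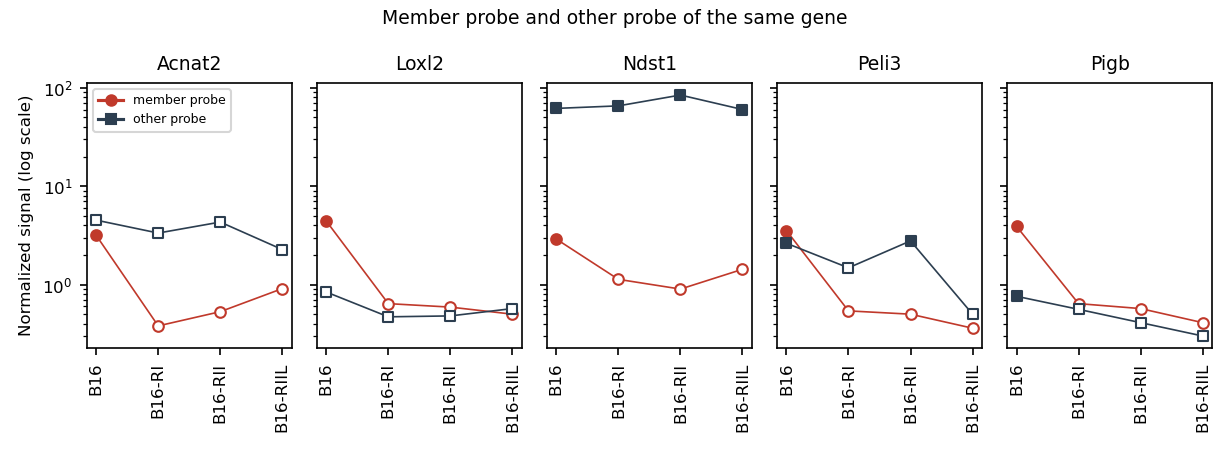
Normalized signal (log axis) on the 4 arrays is shown for the member probe (circles) and the other probe (squares) of the 5 genes with another probe, 1 array per line. Filled symbols have an S/N of at least 3 and open symbols do not. Of these 5 genes only Pigb has an other probe that is filled on B16 alone.

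The edges of the selection were densely filled. With an S/N below 6.5 on B16 there were 38 members, and 119 further probes had an S/N of 5 to 6 and were otherwise alike. Just inside were mCG146181, exactly at the limit of 6, and Il3 at 6.01, and just outside was Olfr1361 at 5.98. On the passaged side 29 members had an S/N of 2.5 or more on some line, such as Zcchc3 with 2.98 on B16-RII, and 157 probes were left out for 1 passaged array at 3 or more, 53 of them below 4. Ern1, with 6.64 on B16 and a value at the limit of 3 on B16-RI, was the nearest of these. An S/N below 1 on all passaged lines was found for 49 members, 23 of them named.

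Of the 6829 genes with a probe at an S/N of at least 6 on B16, 68 were member genes (0.996%). Of 18 gene lists, 4 held a member. Cdh13 was the only member among 67 measured adhesion and junction genes, 21 of which had an S/N of at least 6 on B16. Serpine2 and Loxl2 were members among 86 matrix and protease genes, 27 of them at that S/N. Lhx2 was a member among 108 developmental transcription factors and Rhox5 among 28 cancer-testis and germ cell genes, with 32 and 5 at that S/N. By 1 probe per gene over 14366 genes, 1.47% were detected on B16 and at least 2-fold brighter there than on each passaged line, and 1.43% were detected on each passaged line and at least 2-fold brighter than on B16. By that measure 4 matrix and protease genes were lower on all passaged lines and 3 higher, and 2 adhesion genes were lower and 1 higher. For developmental factors 1 was lower and 4 higher, and for germ cell genes 1 was lower and 0 higher. Of the genes lower, Postn, Col7a1, Itgb5 and Dlx5 were not members, and the member Lhx2 was not lower by that measure. The other 14 lists held 433 measured entries, 104 of them at an S/N of at least 6, and no member. Of those entries 7 were lower on all passaged lines and 10 higher.

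Member genes were found on all autosomes and on X. Chromosome 15 held 7 of the 68 matched genes (10.3%), against 4.22% of the genes with an S/N of at least 6 on B16. X held 5 (7.35%) against 2.87%. Chromosome 2 also held 7 (10.3% against 8.19%), and chromosome 19 also held 5 (7.35% against 3.63%). On chromosome 15, Mfng lay between Cacng2 and Slc16a8, with 16 and 19 protein-coding genes between them in the GRCm38.p6 gene table, of which 4 and 9 were detected on all arrays. The 296 chromosome 15 genes detected on every array had a median difference of B16 minus B16-RI, B16-RII and B16-RIIL of -0.09, -0.36 and -0.27 log2 units, against -0.22, -0.45 and -0.26 over all 7091 such genes. For 6 members (Spata9, Mfng, Tnfrsf11b, Plxna3, Capn3 and Pfn3) the nearest gene detected on all arrays was taken on each side. Of these 12 neighbours, 3 had a higher normalized signal on B16 than on every passaged line, 5 a lower one and 4 lay in between. Rhobtb3, adjacent to Spata9, was at 13.5 on B16 and 18.1, 20.7 and 13.1 on the passaged lines. Fam50a and Lage3, on either side of Plxna3, were at 74.9 and 38.4 on B16 and at 78.2 or more and 40.2 or more on the passaged lines. Zfp106, next to Capn3, was at 14.9 on B16 and 24.1, 33.2 and 27.3, while Cdc42ep1, the second gene after Mfng, was at 9.45 and 4.64, 4.67 and 7.49. Both neighbours of Pfn3 were highest on B16, Lman2 at 3.18 and 1.70, 1.41 and 2.57, and Pdlim7 at 26.3 and 15.6, 21.9 and 16.1. Around Tnfrsf11b, Enpp2 was at 46.2 on B16 and 20.2, 31.6 and 51.9 on the passaged lines, and Ext1 at 9.84 and 20.4, 13.9 and 15.5.

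Promoters were described from RefSeq windows of 250 bases before to 50 after the gene start, build GRCm38.p6, found for 55 of the 68 genes. At least 10 CpG dinucleotides were held by 28 of the 55 windows (50.9%), against 86.5% of 5551 windows of genes with an S/N of at least 6 on B16 and 74.1% of the 795 windows of genes with a probe of S/N 6 to 10. Over all 27025 windows of the RefSeq table it was 43.9%, and over the 11373 windows of genes on the array 66.4%. The share was 54.1% for 61 genes on in the lung line only and 64.5% for 31 genes on in all passaged lines. The median GC content was 54.3% in members, 61.3% in genes with an S/N of at least 6 and 52.7% in all windows of the RefSeq table. Windows are shown here for the named members with a bound of at least 8-fold that had the fewest and the most CpG, with motif matches in capitals, 5′ to 3′ on the strand of the gene. They are Spata9 at chr13:75967489-75967788 on the plus strand and Cyp3a16 at chr5:145469674-145469973 on the minus strand, each with 1 CpG, then Plxna3 at chrX:74328816-74329115 on the plus strand with 18 and Serpine2 at chr1:79858616-79858915 on the minus strand with 41.
Spata9: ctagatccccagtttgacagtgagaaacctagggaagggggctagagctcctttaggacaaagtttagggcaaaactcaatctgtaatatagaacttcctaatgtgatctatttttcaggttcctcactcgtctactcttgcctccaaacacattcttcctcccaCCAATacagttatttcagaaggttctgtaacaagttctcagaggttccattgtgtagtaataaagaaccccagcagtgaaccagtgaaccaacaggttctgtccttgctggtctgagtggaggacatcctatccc
Cyp3a16: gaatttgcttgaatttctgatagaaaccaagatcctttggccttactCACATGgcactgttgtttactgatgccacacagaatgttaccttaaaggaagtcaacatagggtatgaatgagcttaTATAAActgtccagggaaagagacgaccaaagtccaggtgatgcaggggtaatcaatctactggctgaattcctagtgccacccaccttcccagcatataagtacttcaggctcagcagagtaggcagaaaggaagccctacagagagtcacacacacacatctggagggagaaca
Plxna3: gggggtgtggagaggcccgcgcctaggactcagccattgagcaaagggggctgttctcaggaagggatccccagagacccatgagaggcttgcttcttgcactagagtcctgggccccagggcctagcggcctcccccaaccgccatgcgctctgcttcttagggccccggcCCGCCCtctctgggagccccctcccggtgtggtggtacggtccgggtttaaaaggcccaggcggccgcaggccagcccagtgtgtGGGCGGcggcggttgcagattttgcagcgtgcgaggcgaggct
Serpine2: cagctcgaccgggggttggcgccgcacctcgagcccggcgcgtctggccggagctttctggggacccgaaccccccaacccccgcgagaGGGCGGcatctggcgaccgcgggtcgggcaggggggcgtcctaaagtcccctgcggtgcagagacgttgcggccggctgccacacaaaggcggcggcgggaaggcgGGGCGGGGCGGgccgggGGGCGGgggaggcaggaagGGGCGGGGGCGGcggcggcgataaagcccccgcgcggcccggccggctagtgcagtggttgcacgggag

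The capitals mark a CCAAT box in Spata9, an M-box core and a TATA box in Cyp3a16, and GC boxes in Plxna3 and Serpine2. On both strands, the GC box GGGCGG was in 22 of 55 member windows (40.0%). It was in 35.9% of all 27025 windows of the table and 66.6% of those of genes with an S/N of at least 6 on B16. The share was 59.4% for genes with a probe of S/N 6 to 10, 53.4% for genes on the array and 49.2% for lung-only genes. The TATA box TATAAA was in 12.7% of member windows, 14.2% of all and 7.10% of those of genes with an S/N of at least 6. In the same order, the M-box core CATGTG, the heart of a sequence bound by the melanocyte factor Mitf, was in 16.4%, 14.1% and 8.07%, and the E-box CACGTG in 3.64%, 7.24% and 11.2%. The CCAAT box, the AP-1 site TGACTCA and the cyclic AMP element TGACGTCA were in 27.3%, 1.82% and 0% of member windows, in 37.9%, 5.17% and 1.88% of all, and in 39.8%, 3.21% and 3.64% of those of genes with an S/N of at least 6. For genes with a probe of S/N 6 to 10, the TATA box, M-box core and E-box were in 7.92%, 9.18% and 8.55%. For the CCAAT box, AP-1 site and cyclic AMP element the shares there were 37.7%, 3.4% and 3.4%. No motif of these 7 contains another.

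**Figure D5:**
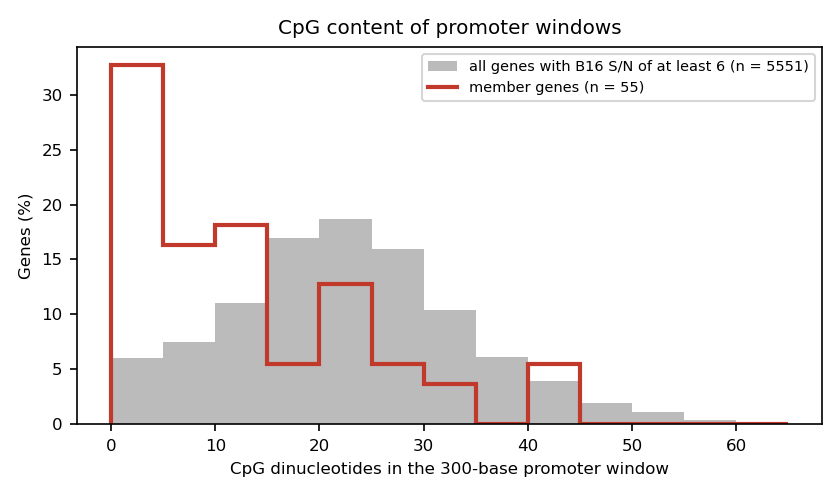
The percentage of genes (y axis) is shown by the number of CpG dinucleotides in the 300-base promoter window (x axis) for the 55 member genes (red line) and all 5551 genes with an S/N of at least 6 on B16 (grey area, members included). Windows with 10 or more CpG are 50.9% of the members and 86.5% of all.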

How the data were processed

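The authors deposited 1 table from chemiluminescence arrays of Applied Biosystems (mouse, version 2), with raw and normalized intensity per probe, and 2 scores of the analyzer, the S/N and the flag. The deposited normalized intensity is the raw intensity divided by 1 constant per array and probe set (2 sets), although the study's methods name quantile normalization. Of the columns, 16 were used. The 20 per-sample columns of second arrays correspond to no labelled sample and stayed out, as did the columns of log2 values and ratios. The members, gene lists, families and functional groups were chosen with earlier results of these data known. Genes named are the symbol-bearing members among the 25 with the highest B16 S/N, those in a gene list, with another probe or at the limits, and others chosen after their values were seen. Gene names came from RefSeq (GRCm38.p6), which matched 16204 of 17302 probes with a symbol. A gene list was represented by its brightest probe per gene. The code of the selection was run on simulated data whose planted probes lay well away from the limits. Such a run checks the code only and says nothing about members near the limits. Python 3.11.15, numpy 2.4.6 and pandas 2.3.3 were used. The number of arrays, 1 per line, limits the precision of every value.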

Additional observations from a re-analysis of the deposited data

How the results depend on the processing

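The number of members depended on the limits. It was 1054 with an S/N of at least 3 on B16, 29 with at least 10, 109 and 49 with an S/N below 2 and below 1 on each passaged array, and 65 when a 4-fold difference was also asked for. With a flag of 0 on all 4 arrays it was 16, since 149 members carry a flag of 1 on some passaged array. Of all undetected probes, 72.0%, 71.4% and 69.4% carried a flag above 0 on B16-RI, B16-RII and B16-RIIL. The member count was 178 without a flag limit and 130 with a 2-fold difference. With a flag of 0 on B16, chosen after seeing the data, it was 138. It was 198, 235 and 219 when B16-RI, B16-RII or B16-RIIL was not used. The dim members were 98 to 161 under other limits. Median bounds were 2.08 to 2.67 log2 units and 104 to 143 members were at least 2-fold apart over the alternatives, which moved no bound of Spata9, Mfng, Tnfrsf11b, Plxna3, Capn3, Loxl2 or Ednra by more than 1.5-fold. The members at least 2-fold apart under all 5 scalings at once were 126. No paired analysis was made, because only the 1 labelled sample per line was used. The table also holds a second array of each line, and leaving these out was a choice: a replicate analysis with them could have been made and was not run. Of the 4 labelled samples none was left out. Signals near the detection limit set what these arrays can show.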
